A study of Mus musculus with 6 samples.

Results

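Epcam, Lsr, Lad1, Rab25, Ap1m2 and Myo5b are 6 genes whose products hold epithelial cells together, anchor them, or sort membrane proteins to their apical and basolateral faces. They were followed by symbol among the 18193 genes that the array names singly, using the brightest of each gene's probe sets. The 6 genes have 10 probe sets in all, and the brightest are 1416579_a_at for Epcam, 1451255_at for Lsr, 1418449_at for Lad1, 1417738_at for Rab25, 1460190_at for Ap1m2 and 1452298_a_at for Myo5b. All 6 passed the filter on low signal, as did 13717 genes altogether. The filter works on a gene's mean over the arrays, so a gene bright in 1 layer only can pass through that layer. The tissue came from wild-type mouse embryos of strain FVB/N and unknown sex, taken at E13 (embryonic day 13, Theiler stage 21), and comprised the bladder neck with the urethra. Trypsin and a needle parted it into epithelium (arrays 1, 2 and 5) and mesenchyme, the connective tissue around it (arrays 1, 2 and 3). Samples were not pooled, and their RNA was amplified in 2 rounds before hybridisation to an Affymetrix whole-genome array. Nothing in the labels tells whether every array stands for a separate embryo, so p-values measure the spread between these samples, which may be technical.

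A sheet of epithelium is sealed by junctions between neighbouring cells and is fixed to a basement membrane below. Each cell keeps an apical face toward the lumen and a basolateral face toward its neighbours and the matrix. New and recycled membrane proteins are sent to one face or the other through recycling endosomes, which Rab GTPases and myosin motors move, and through clathrin adaptors, which select cargo. EpCAM is a cell-surface glycoprotein that binds its like on the next cell and associates with claudin-7. LSR, also called angulin-1, marks the contact points where 3 cells meet and recruits tricellulin there. Ladinin-1 is a component of the anchoring filaments under epithelium. RAB25 is the epithelial relative of RAB11 on apical recycling endosomes, MYO5B is the actin motor that binds RAB11 proteins, and AP1M2 is the medium chain of the AP-1B clathrin adaptor, which serves basolateral sorting. In humans, inherited loss of EPCAM or of MYO5B causes disorders of the intestinal epithelium.

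The promoter windows of 4 members are shown because each holds at least 2 E-boxes, which read CACCTG on one strand and hence CAGGTG on the other and are letters that repressors of epithelial genes of the Snail and Zeb families are known to bind. The sequences are from RefSeq on mouse assembly GRCm38.p6 and run 5′ to 3′ along the gene, 250 bases before and 50 bases after its start. They lie at chr17:87635729-87636028 on the plus strand for Epcam, and on the minus strand at chr7:30973420-30973719 for Lsr, chr3:88548230-88548529 for Rab25 and chr9:21312284-21312583 for Ap1m2. Capitals mark every match, on either strand, to the E-box, to a GC box (GGGCGG), to an ETS core (CCGGAAG) or to an AP-1 site (TGANTCA).
Epcam: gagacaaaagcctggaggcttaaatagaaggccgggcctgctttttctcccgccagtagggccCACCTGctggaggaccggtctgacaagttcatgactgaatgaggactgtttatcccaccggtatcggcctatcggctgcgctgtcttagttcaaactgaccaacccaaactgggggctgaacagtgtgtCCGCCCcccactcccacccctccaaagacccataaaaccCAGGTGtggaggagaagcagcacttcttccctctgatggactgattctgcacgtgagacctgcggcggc
Lsr: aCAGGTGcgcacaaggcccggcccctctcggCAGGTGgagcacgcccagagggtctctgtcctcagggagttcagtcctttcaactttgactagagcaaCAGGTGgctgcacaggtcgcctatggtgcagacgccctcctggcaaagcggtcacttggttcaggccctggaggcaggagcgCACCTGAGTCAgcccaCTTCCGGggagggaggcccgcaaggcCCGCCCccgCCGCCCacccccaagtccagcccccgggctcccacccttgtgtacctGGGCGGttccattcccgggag
Rab25: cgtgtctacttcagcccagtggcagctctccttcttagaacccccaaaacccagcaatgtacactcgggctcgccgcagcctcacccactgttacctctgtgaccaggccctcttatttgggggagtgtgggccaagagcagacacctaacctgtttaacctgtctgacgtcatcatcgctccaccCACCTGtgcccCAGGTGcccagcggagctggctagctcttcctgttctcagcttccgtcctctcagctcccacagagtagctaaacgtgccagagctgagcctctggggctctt
Ap1m2: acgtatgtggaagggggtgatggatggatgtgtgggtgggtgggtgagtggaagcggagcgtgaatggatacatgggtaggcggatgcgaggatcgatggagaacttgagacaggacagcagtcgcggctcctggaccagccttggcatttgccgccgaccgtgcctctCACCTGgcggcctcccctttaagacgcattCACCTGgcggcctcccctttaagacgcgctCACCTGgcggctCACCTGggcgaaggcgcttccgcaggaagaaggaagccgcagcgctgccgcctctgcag

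The E-box was present in 4 of the 5 members searched and in 20.2% of 32851 promoters of the same length. Among 14071 promoters of tested genes 18.9% held it, and among 883 promoters of genes higher in epithelium without mesenchyme 1 the share was 32.6%. Epcam and Rab25 had 2 E-boxes each, and at least 2 were found in 2.88% of all promoters. Lsr and Ap1m2 had 4 each, a number reached by 0.05% of all promoters. The shares with several E-boxes were not taken among promoters of tested genes or of genes higher in epithelium. The pair in Rab25 lay 11 bases apart from first base to first base, on opposite strands. The 4 of Ap1m2 lay on the same strand, at steps of 30, 30 and 12 bases, and the first 2 stand in a repeat: the 30 bases from each are identical at 28 positions. In Lsr the AP-1 site overlaps an E-box. Lad1 (chr1:135818348-135818647, plus strand) had no match to any motif searched. The grainyhead motif AACCGGTT, named for transcription factors of epithelia, was found in 0 of the 5 windows and in 0.15% of all. GC boxes stood in 2 of the 5, Epcam and Lsr, against 35.7% of all promoters, 59.3% of those of tested genes and 56.7% of those of genes higher in epithelium. Only Lsr had the ETS core or the AP-1 site. The ETS core stood in 8.86% of all promoters and 15.3% of those of tested genes, and the AP-1 site in 7.81% and 5.45%. The 5 windows held 57.0% to 67.3% G and C, against a median of 52.7%, and 9 to 23 CpG dinucleotides, against a median of 7. A match describes the letters only, and binding was not measured. Myo5b is named without sequence.

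**Figure D1:**
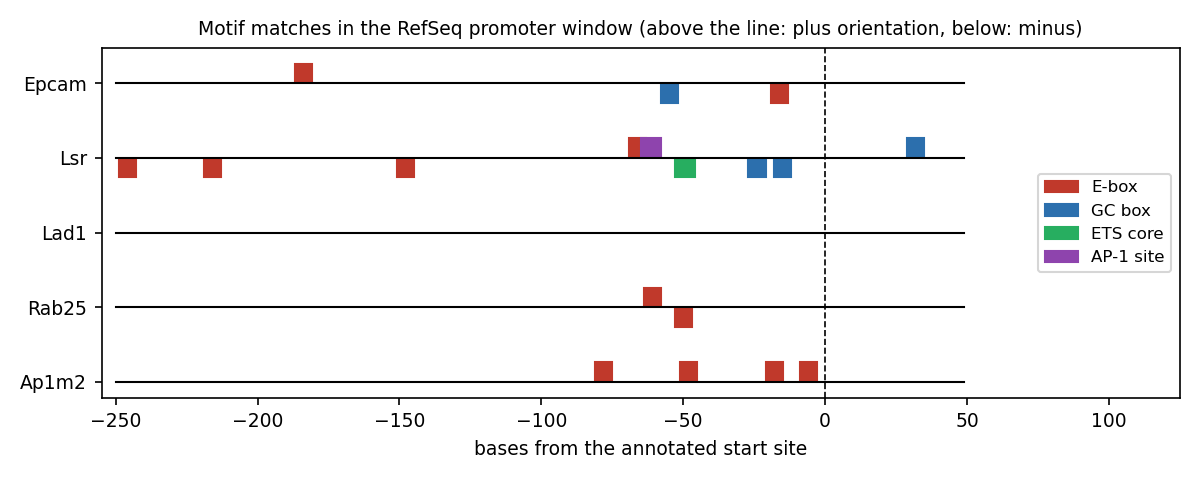
Motif matches in the promoter windows of Epcam, Lsr, Lad1, Rab25 and Ap1m2, with the distance from the gene's start in bases along the x axis and 1 line per gene. Marks above a line are on the plus orientation and marks below it on the minus; Lsr and Ap1m2 carry 4 E-boxes each and Lad1 has no mark.

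Signals below are quantile-normalized array intensities with an offset of 16 subtracted again, and differences are epithelium minus mesenchyme on the log2(signal + 16) scale with limma's standard error. A change of 1 on that scale is a doubling, and the offset makes the change of dim genes look smaller than it is. A gene is called when limma's p-value, adjusted by Benjamini-Hochberg over all tested genes, is under 0.05. Signals of different probe sets are not set against each other. In tissue samples of this kind, fewer cells of a type and less RNA per cell cannot be told apart.

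Mesenchyme 1 stood apart from the other mesenchymal arrays before any member was considered. Across genes its correlation with mesenchyme 2 and 3 was 0.784 and 0.755, while those 2 arrays correlated at 0.981 and the epithelial arrays among themselves at 0.922 to 0.958. Of 14 markers of organs with epithelia of their own, such as liver and skin, all 14 were higher there than on mesenchyme 2 and 3, and 11 were over 4-fold above every other array. The summed signal of these 14 reached 372022 on mesenchyme 1, where the other 5 arrays had 4367 to 31067. The summed signal of 10 mesenchymal markers was 223550 to 273693 on the mesenchymal arrays and 34339 to 53483 on the epithelial ones. Within that sum the markers on mesenchyme 1 went both ways: 5 of 10 were above mesenchyme 2 and 3, among them the matrix genes Col1a1 and Lum, over 4-fold above every other array, while Twist1 read 467 against 3389 and 4294. All 5 macrophage markers were higher on mesenchyme 1, with a sum of 39573 against 10154 and 7255. The summed signal of 10 epithelial markers was 206276 to 225701 on the epithelial arrays, then 70178, 14298 and 2665 on mesenchyme 1, 2 and 3. Epithelial markers thus had a signal on every array labelled mesenchyme, with the highest sum on the first. Results are therefore given with all 6 arrays and again without mesenchyme 1.

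Every member read higher in epithelium, by a median of 3.47 log2 units with all 6 arrays and 4.99 without mesenchyme 1, where the median of all tested genes was 0.12 and 0.02. With all 6 arrays 1 of 6 members was called, Lsr, beside 1.95% of tested genes called higher in epithelium. Without mesenchyme 1 all 6 of 6 were called, beside 6.37%. Genes called higher in mesenchyme made up 4.03% and 8.17%, and no member was among them. For 4 of 6 members each epithelial array exceeded each mesenchymal array, which held for 15.5% of tested genes, and without mesenchyme 1 it held for 6 of 6 members and 23.1% of tested genes. The 2 that overlapped, Rab25 and Myo5b, did so through mesenchyme 1. The members were known as epithelial genes when they were chosen, so their direction is a description of this tissue.

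**Figure D2:**
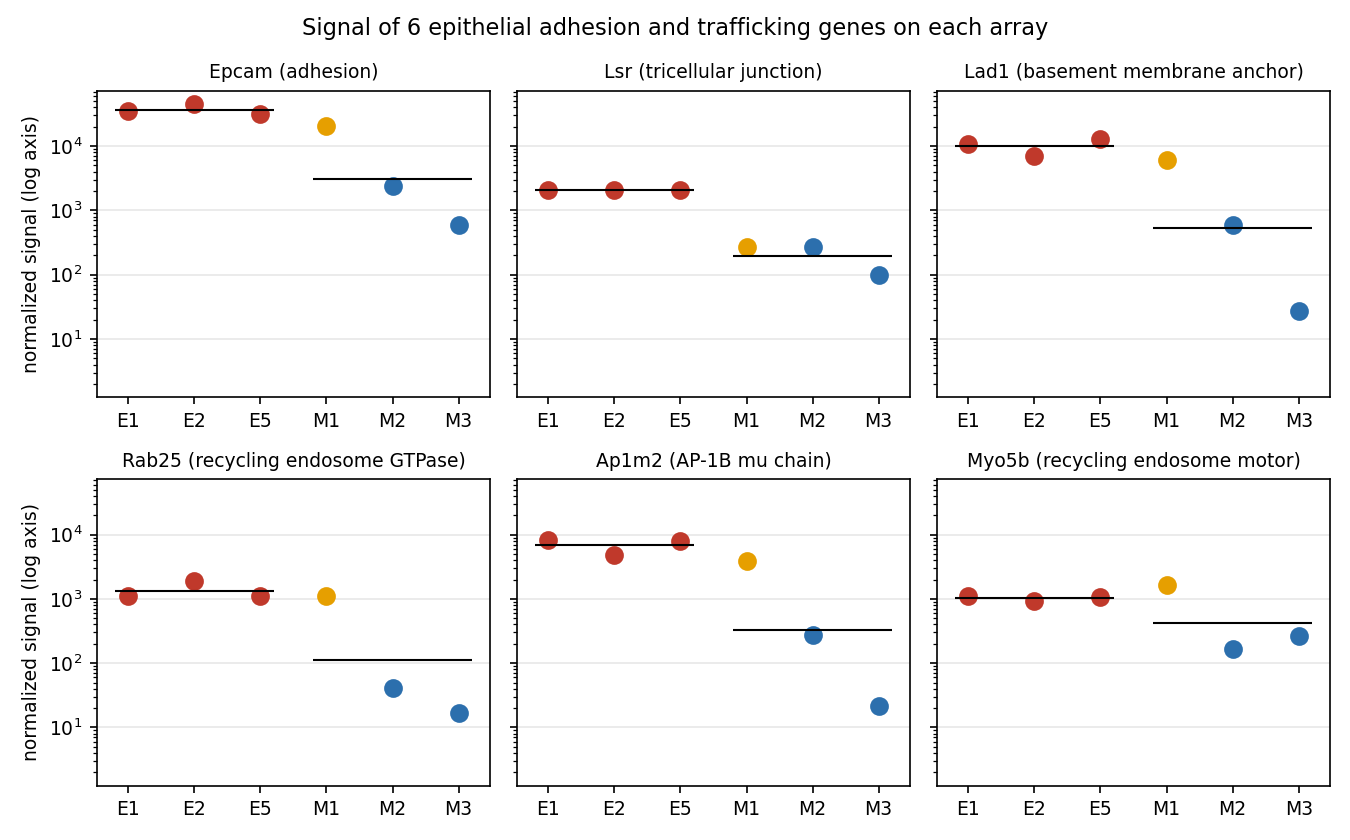
Normalized signal of each member on each array, on a log axis, with epithelium 1, 2 and 5 (E1, E2, E5) in red, mesenchyme 1 (M1) in orange and mesenchyme 2 and 3 (M2, M3) in blue; the line is the layer's mean on the log2 scale. Mesenchyme 1 lies near the epithelial arrays for 5 genes and near mesenchyme 2 for Lsr.

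Epcam, the adhesion glycoprotein, had signals of 34785, 44402 and 32036 on epithelium 1, 2 and 5 and of 20604, 2373 and 583 on mesenchyme 1, 2 and 3. The layers did not overlap, but mesenchyme 1 lay much nearer to the epithelium than to the other mesenchymal arrays. The difference was 3.57 ± 1.12 (SE, n = 3 arrays a layer), or 11.9-fold, with a 95% interval of 0.94 to 6.20 and a limma adjusted p of 0.130. Without mesenchyme 1 it was 4.97 ± 0.544, or 31.4-fold, with an adjusted p of 0.00182. With mesenchyme 1 kept in and mesenchyme 3 left out it was 2.44. The gene's second probe set, of the kind that can match several transcripts, gave a smaller difference of 1.80 with all 6 arrays and 2.53 without mesenchyme 1 in a limma fit over all probe sets (adjusted p 0.276 and 0.0206).

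Lsr, the receptor of tricellular contacts, had signals of 2040, 2102 and 2067 on the epithelial arrays and of 273, 266 and 98.4 on mesenchyme 1, 2 and 3. The epithelial values were nearly level, with an SD of 0.02 log2 units, and mesenchyme 1 was close to mesenchyme 2. The difference was 3.31 ± 0.441, or 9.90-fold, with a 95% interval of 2.27 to 4.34 and a limma adjusted p of 0.00896. Without mesenchyme 1 it was 3.62 ± 0.403, or 12.3-fold, with an adjusted p of 0.00191. With the mean of its probe sets in place of the brightest, which brings in the dim one described next, the difference was 1.68 with all 6 arrays and 1.76 without mesenchyme 1. The call with mesenchyme 1 kept in was lost without epithelium 1 (adjusted p 0.0654) and without epithelium 5 (0.0533). The other Lsr probe set was dim on all arrays, with signals of 7.42 to 19.4, and lay below the filter.

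Lad1, which encodes ladinin-1, had signals of 10902, 7110 and 12687 on the epithelial arrays and of 6127, 592 and 27.4 on mesenchyme 1, 2 and 3. The layers did not overlap, and the mesenchymal arrays were spread more widely than for any other member. Between mesenchyme 2 and 3 alone the gap was 3.81 log2 units. The difference between layers was 4.19 ± 1.56, or 18.3-fold, with a limma adjusted p of 0.196, and it was 2.37 without mesenchyme 3. Without mesenchyme 1 it was 6.03 ± 0.989, or 65.3-fold, with an interval of 3.69 to 8.37 and an adjusted p of 0.00745. From there it became 4.14 when mesenchyme 3 and 7.95 when mesenchyme 2 was left out too.

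Rab25, the GTPase of apical recycling endosomes, had signals of 1104, 1874 and 1089 on the epithelial arrays and of 1114, 40.9 and 16.6 on mesenchyme 1, 2 and 3. Mesenchyme 1 exceeded epithelium 1 and 5, so the layers overlapped, while mesenchyme 2 and 3 were both near the low end of the scale. The difference was 3.37 ± 1.24, or 10.4-fold, with a limma adjusted p of 0.188. Without mesenchyme 1 it was 5.01 ± 0.416, or 32.1-fold, with an interval of 4.02 to 5.99 and an adjusted p of 0.000950. With mesenchymal signals this low the size depends on the offset, and without mesenchyme 1 it was 5.71 with offset 1 and 3.92 with offset 64. With all 6 arrays it was 2.38 without mesenchyme 3.

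Ap1m2, the AP-1B medium chain, had signals of 8344, 4827 and 7995 on the epithelial arrays and of 3847, 270.3 and 21.8 on mesenchyme 1, 2 and 3. The layers did not overlap, and mesenchyme 1 was a little below the lowest epithelial array. The difference was 4.31 ± 1.47, or 19.8-fold, with a limma adjusted p of 0.161. Without mesenchyme 1 it was 6.15 ± 0.778, or 70.8-fold, with an interval of 4.31 to 7.99 and an adjusted p of 0.00280. This size rests on mesenchyme 3, where the signal was near the low end of the scale. Leaving it out as well gave 4.70, and leaving out mesenchyme 2 in its place gave 7.58. With all 6 arrays the difference was 2.70 without mesenchyme 3.

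Myo5b, the recycling endosome motor, had signals of 1093, 911 and 1071 on the epithelial arrays and of 1616, 164 and 268 on mesenchyme 1, 2 and 3. On this probe set mesenchyme 1 was the highest of all 6 arrays, so the layers overlapped. The difference was 1.25 ± 0.780, or 2.37-fold, with a limma adjusted p of 0.433, and it was 0.60 without mesenchyme 2. Without mesenchyme 1 another of its 3 probe sets became the brightest, with signals on epithelium 1, 2 and 5 of 760, 745 and 1263 and on mesenchyme 1, 2 and 3 of 779, 347 and 306 in the normalization of all arrays. There mesenchyme 1 was below epithelium 5 only. On the remaining probe set, which was below the filter, mesenchyme 1 was the lowest array at 11.9. By the probe set that was brightest without mesenchyme 1, the difference without that array was 1.46 ± 0.338, or 2.76-fold. Its interval was 0.66 to 2.26 and its limma adjusted p 0.0291. This call was lost without epithelium 1 (adjusted p 0.0734) and without mesenchyme 3 (0.231). The first probe set gave 2.26 ± 0.340 on the same 5 arrays (limma over all probe sets, adjusted p 0.0118). Of the 6 genes Myo5b thus differed least, and 860 of 13717 tested genes had a larger difference toward epithelium with all 6 arrays, against 33 to 112 for the other members.

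**Figure D3:**
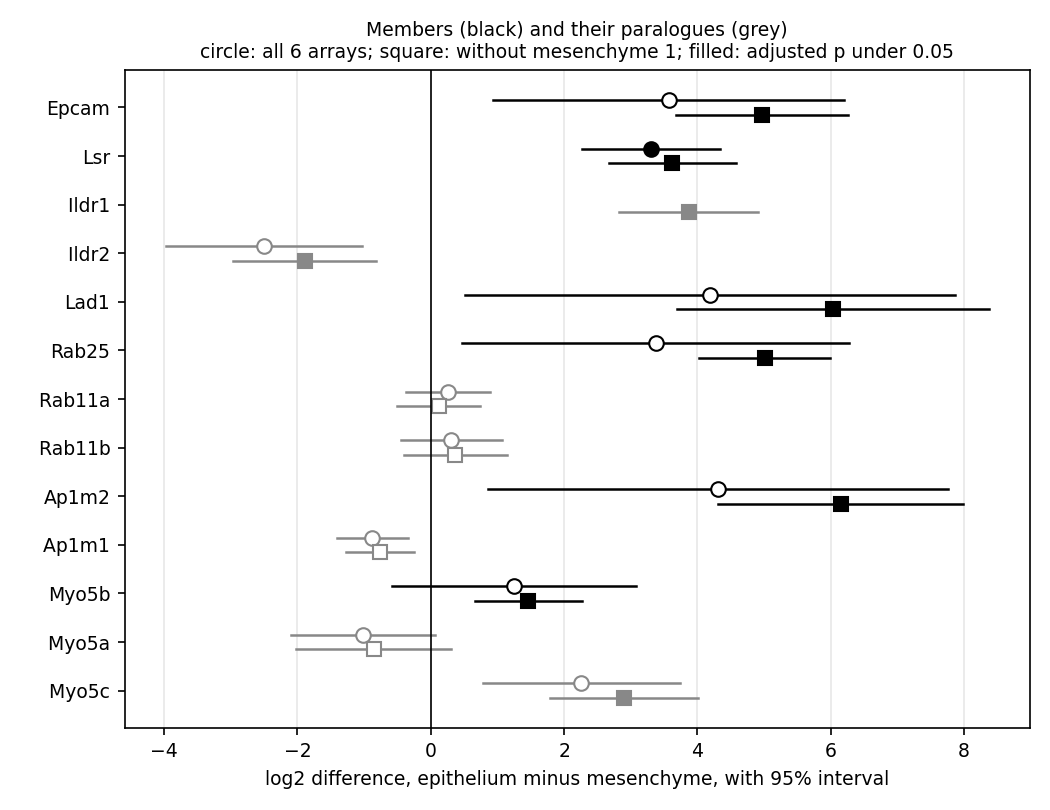
Log2 difference, epithelium minus mesenchyme, of the 6 members (black) and of their paralogues (grey), with 95% intervals from limma, as circles for all 6 arrays and squares without mesenchyme 1; filled marks are called. Lsr is the only member with a filled circle at 3.31, and all 6 members have filled squares between 1.46 and 6.15.

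On mesenchyme 1, 5 of the 6 members were nearer to epithelium than to mesenchyme 2 and 3. Placed on the gap from the mean of mesenchyme 2 and 3 to the epithelial mean, on the log2 scale, mesenchyme 1 stood at 83.1% for Epcam, 88.3% for Lad1, 95.3% for Rab25, 86.3% for Ap1m2 and, by its first probe set alone, 130% for Myo5b. For Lsr it stood at 19.3%. Among 861 genes higher in epithelium without mesenchyme 1, the median place was 54.7%, with quartiles at 10.6% and 96.7%, and 52.4% of these genes were past the midpoint. In log2 units, mesenchyme 1 exceeded the mean of the other 2 mesenchymal arrays by 0.68 for Lsr, 2.85 for Myo5b, 4.11 for Epcam, 4.71 for Rab25, 5.21 for Ap1m2 and 5.24 for Lad1. The same excess had a median of 3.22 over the 10 epithelial markers, of which 9 were higher on mesenchyme 1 than on mesenchyme 2 and 3, and of 6.48 over the 14 organ markers. Over all tested genes it was -0.23. The part of epithelial or other tissue in these values was not tested.

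**Figure D4:**
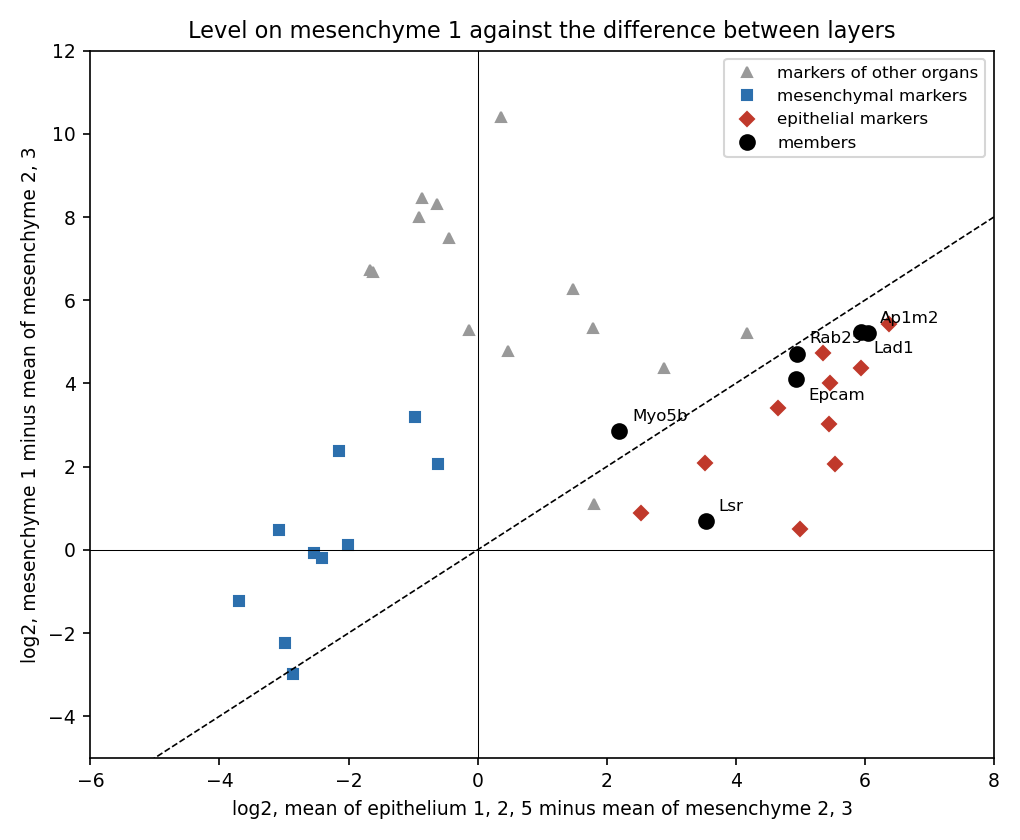
Each point is a marker gene of other organs (grey), of mesenchyme (blue) or of epithelium (red), or a member (black, labelled). The x axis is the log2 difference between the epithelial mean and the mean of mesenchyme 2 and 3. The y axis is the log2 excess of mesenchyme 1 over that mesenchymal mean. Rab25 lies near the line where mesenchyme 1 equals epithelium, Myo5b above it, and Lsr near the line of no excess at 0.68.

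Mesenchyme 2 and 3 also differed from each other in the members. Mesenchyme 2 was higher for 5 of 6 members, by 0.80 log2 units for Rab25, 1.30 for Lsr, 2.00 for Epcam, 2.92 for Ap1m2 and 3.81 for Lad1. For Myo5b it was lower by 0.65 on the first probe set, but on the one used without mesenchyme 1 it was higher, at 347 against 306. All 10 epithelial markers were higher on mesenchyme 2 than on mesenchyme 3, with a median of 2.47 log2 units, against 7403 of 13717 tested genes and a median of 0.03. The summed signal of the members, taken for each array, was 3707 on mesenchyme 2 and 1015 on mesenchyme 3, beside 56946 to 61227 on the epithelial arrays. The sizes of the member differences without mesenchyme 1 therefore rest on which of these arrays is taken as mesenchyme: the median of the 6 was 5.70 without mesenchyme 2 and 4.08 without mesenchyme 3.

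The members' patterns over the 6 arrays were most alike for Lad1 and Ap1m2. The root mean square distance between their log2 signals, each centred on its own mean, was 0.276. Epcam and Rab25 followed at 0.429, and Lad1 and Myo5b were farthest apart at 2.12. Measured to the median pattern of the members, the closest tested genes outside them were Pkp2 at 0.138, Tmem54 at 0.201, Rassf6 at 0.225, Dsp at 0.262, Dsg2 at 0.276 and Krt17 at 0.281, and the median of all tested genes was 2.29. Pkp2, Dsp and Dsg2 encode desmosome proteins, which join epithelial cells through keratin filaments, and Krt17 encodes a keratin. Pkp2 had signals of 6152, 6047 and 5853 on the epithelial arrays and of 4474, 496 and 143 on mesenchyme 1, 2 and 3, so it too was high on mesenchyme 1. Among the members Epcam lay at 0.243 and Rab25 at 0.432, while Lsr at 1.21 and Myo5b at 1.31 were farthest from the common pattern. Since 1 array carries much of every such pattern, the distances describe these 6 arrays only.

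Each member but Lad1 has close relatives with broader or different use, and these were read on the same arrays. Rab11a and Rab11b, the ubiquitous relatives of Rab25, had differences of 0.25 ± 0.269 and 0.31 ± 0.324, and neither was called (limma adjusted p 0.642 and 0.639), nor without mesenchyme 1 (0.12 and 0.37, adjusted p 0.837 and 0.552). Ap1m1, the medium chain of the AP-1A adaptor found in most cells, had signals of 6639, 5614 and 7573 on the epithelial arrays and of 14164, 11956 and 10339 on the mesenchymal ones. It was higher on each mesenchymal array than on any epithelial one, yet its difference of -0.88 ± 0.229 was not called (adjusted p 0.0757), nor was that of -0.76 without mesenchyme 1 (0.0593). Myo5a, the relative of Myo5b best known from neurons and pigment cells, read -1.02 ± 0.458 (adjusted p 0.282), and -0.86 without mesenchyme 1 (0.335). Myo5c, an epithelial myosin, had signals of 769, 796 and 833 against 367, 174 and 51.5, a difference of 2.26 ± 0.632 that was called without mesenchyme 1 only (2.90 ± 0.468, adjusted p 0.00701, against 0.0932 with all arrays).

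The relatives of Lsr went different ways. Ildr1, also called angulin-2, had signals of 363, 349 and 342 on the epithelial arrays and of 20.5, 8.23 and 8.13 on the mesenchymal ones. It was below the filter with all 6 arrays, and without mesenchyme 1 it was called at 3.87 ± 0.440 (limma adjusted p 0.00201). Ildr2, or angulin-3, had signals of 95.6, 92.0 and 136 on the epithelial arrays and of 1642, 607 and 307 on the mesenchymal ones. It was lower in epithelium, by -2.50 ± 0.626 (adjusted p 0.0663), and was called without mesenchyme 1 at -1.89 ± 0.452 (adjusted p 0.0332). In all, 0 of 6 tested relatives were called by limma with all 6 arrays, and without mesenchyme 1 2 of 7 were called higher in epithelium and 1 higher in mesenchyme.

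Subtracting a relative from its member on each array gave 7 contrasts between the layers. They were largest for Lsr over Ildr2, at 5.81, and for Ap1m2 over Ap1m1, at 5.18 log2 units, and in both no array of one layer overlapped the other. Their two-sided exact permutation p was 0.1, the smallest that 3 arrays against 3 can give, and 0.35 after adjustment over the 7 pairs. The difference between layers was larger for Rab25 than for Rab11a by 3.12 and than for Rab11b by 3.07 (exact p 0.4 and 0.3). Myo5b over Myo5a gave 2.26 (exact p 0.2). Lsr against Ildr1 gave -0.42 and Myo5b against Myo5c gave -1.01, both with an exact p of 0.4. Without mesenchyme 1 the contrast was largest for Ap1m2 over Ap1m1, at 6.91, then 5.51 for Lsr over Ildr2, 4.89 and 4.64 for Rab25 over Rab11a and Rab11b, and -1.43 for Myo5b against Myo5c. These 5 were all at the smallest exact p of 0.1, which is 0.14 after adjustment. Myo5b over Myo5a was then 2.32 (exact p 0.2) and Lsr against Ildr1 -0.25 (exact p 0.7). In these contrasts without mesenchyme 1, Myo5b was read by another probe set than with all 6 arrays. On its first probe set, in the normalization of all arrays, Myo5b minus Myo5c overlapped between the layers. It was 0.50, 0.19 and 0.36 on epithelium 1, 2 and 5 and -0.08 and 2.07 on mesenchyme 2 and 3. Myo5b minus Myo5a did not overlap there, at -1.69, -3.26 and -1.30 against -5.59 and -4.68.

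Of 80 entries tested in 6 lists of genes that work with the members, 10 were called higher in epithelium with all 6 arrays and 35 without mesenchyme 1, against 1.95% and 6.37% of all tested genes. Higher in mesenchyme were 1 and 3, against 4.03% and 8.17% of all tested genes. With any array other than mesenchyme 1 left out, the 10 fell to between 0 and 2. All tested genes called higher in epithelium fell with them, from 267 to between 27 and 135. From the 35, a further epithelial array left out gave 23 to 43, where all tested genes went from 865 to between 520 and 1806. Of the 11 calls with all 6 arrays, all 11 were lost with the replicate number as a block, which called 0 of all tested genes. With no filter 4 were lost, with probe sets averaged per gene 4, without a variance trend 4, with median centring 2 and with no normalization 2. The lists were chosen with earlier results of these arrays known.

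Partners and processing factors of EpCAM had 2 of 10 genes called higher in epithelium and 0 lower, with a median of 1.54, and without mesenchyme 1 5 and 0, with a median of 2.23. The 2 were the membrane protease inhibitors Spint1, at 2.68 ± 0.544 (limma adjusted p 0.0330), and Spint2, at 2.09 ± 0.471 (0.0471), and without mesenchyme 1 they stood at 3.32 and 2.67 (0.00181 and 0.000720). The call of Spint2 was lost with no filter (0.0597), with probe sets averaged per gene (0.0789) and with no variance trend (0.0824). Spint1 had signals of 2948, 1800 and 3596 on the epithelial arrays and of 874, 314 and 235 on the mesenchymal ones. Cldn7, a claudin that EpCAM binds, and Cldn1, the other claudin of the list, were picked out after their values were seen. Cldn7 had signals of 16423, 18530 and 13199 against 6920, 789 and 64.9, which followed the pattern of Epcam on mesenchyme 1. Its difference of 4.37 ± 1.40 was called without mesenchyme 1 only (6.04 ± 0.858, limma adjusted p 0.00438). Cldn1 did not follow that pattern, with signals of 416, 779 and 497 against 6030, 596 and 858. It read -1.40 with all 6 arrays and -0.40 without mesenchyme 1, and was called in neither (limma adjusted p 0.412 and 0.572).

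Tight junction genes that work with Lsr had 2 of 7 called higher in epithelium, with a median of 3.11, and 6 of 7 without mesenchyme 1, with a median of 4.05. Marveld2 encodes tricellulin, the protein that LSR recruits. Its signals were 12111, 12119 and 10360 on the epithelial arrays and 3318, 578 and 343 on the mesenchymal ones, a difference of 3.69 ± 0.763 (limma adjusted p 0.0353). Marveld3, a related tight junction protein, differed by 3.51 ± 0.631 (adjusted p 0.0224). Without mesenchyme 1 the differences were 4.73 and 4.23 (adjusted p 0.000607 and 0.00172). With all 6 arrays the call of Marveld2 was lost with no variance trend (0.0532). With probe sets averaged per gene, Marveld3 fell to 1.63 and was not called (0.0544). For both, as for Lsr, mesenchyme 1 was well below every epithelial array, but it was nearer to epithelium than for Lsr. On the gap between mesenchyme 2 and 3 and epithelium it stood at 61.5% for Marveld2, 44.8% for Marveld3 and 19.3% for Lsr.

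Of 15 genes of the AP-1 and clathrin coat around Ap1m2, 1 was called higher in epithelium and 1 higher in mesenchyme, with a median of 0.30, and without mesenchyme 1 the counts were 2 and 1. The 2 called genes are alternative small chains of the AP-1 adaptor. Ap1s3 had signals of 20112, 21270 and 16564 on the epithelial arrays and of 4670, 1533 and 1466 on the mesenchymal ones, a difference of 3.12 ± 0.459 (limma adjusted p 0.0117). Ap1s2 ran the other way, with 1454, 1338 and 3426 against 17594, 17966 and 14819, a difference of -3.14 ± 0.389 (adjusted p 0.00711). Without mesenchyme 1 these were 3.69 and -3.12 (adjusted p 0.000607 and 0.00381), and with probe sets averaged per gene and all 6 arrays Ap1s2 fell to -1.27 and was not called (0.0767). Neither pair of layers overlapped.

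Around Rab25 and Myo5b, 1 of 23 genes of recycling endosomes and apical delivery was called higher in epithelium and 0 lower, with a median of 0.39. Without mesenchyme 1 the counts were 8 and 1. The 1 was Rab11fip1, an effector that binds RAB11 and RAB25, with signals of 621, 485 and 923 against 134, 133 and 204 and a difference of 1.98 ± 0.411 (limma adjusted p 0.0361), or 1.93 without mesenchyme 1 (0.0173). This call was lost with no normalization (0.0627) and with no filter (0.0622), which leaves 0 of 23. With probe sets averaged per gene, Rab11fip1 fell to 1.53 and was not called (0.0980). Unlike Rab25, it was no higher on mesenchyme 1 than on mesenchyme 3. Anxa2, a membrane-binding annexin, and Rab10, a GTPase of basolateral transport, are named because their probe sets had the highest mean signal. They differed by 0.65 and 0.17 and were not called (adjusted p 0.341 and 0.618), and without mesenchyme 1 by 1.04 and 0.24 (0.00402 and 0.394).

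Genes of apical-basal polarity had 3 of 16 called higher in epithelium and 0 lower, with a median of 0.84, and without mesenchyme 1 7 and 1, with a median of 0.67. They were Llgl2, a basolateral scaffold, at 2.09 ± 0.436 (limma adjusted p 0.0366), Patj, an apical scaffold, at 1.47 ± 0.313 (0.0393), and Prkci, an atypical protein kinase C, at 0.68 ± 0.129 (0.0262). Without mesenchyme 1 they stood at 2.43, 1.77 and 0.64 (0.00652, 0.00238 and 0.0123). With all 6 arrays the call of Llgl2 was lost with no normalization (0.0746) and no filter (0.0567). That of Patj was lost with median centring (0.0609) and no variance trend (0.0527). That of Prkci was lost with median centring (0.0536), no filter (0.0515) and no variance trend (0.179). The difference of Prkci depended on the probe set, being 1.74 with the mean of probe sets and 2.80 with unique probe sets only. Of the anchoring filament and hemidesmosome genes around Lad1, 1 of 9 was called higher in epithelium, with a median of 1.57, and 7 of 9 without mesenchyme 1, with a median of 2.10. The 1 was Lama3, a chain of laminin-332, with signals of 4226, 5378 and 4559 against 1194, 233 and 119 and a difference of 3.77 ± 0.754 (adjusted p 0.0317), or 4.79 without mesenchyme 1 (0.000720). Named for their probe sets' mean signal were Itga6, an integrin subunit, at 0.90 (adjusted p 0.0799), and Dst, a linker to the cytoskeleton, at -0.09 (0.890). Without mesenchyme 1 they read 1.12 (0.00472) and 0.18 (0.669), and the sign of Dst also changed with other processing.

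**Figure D5:**
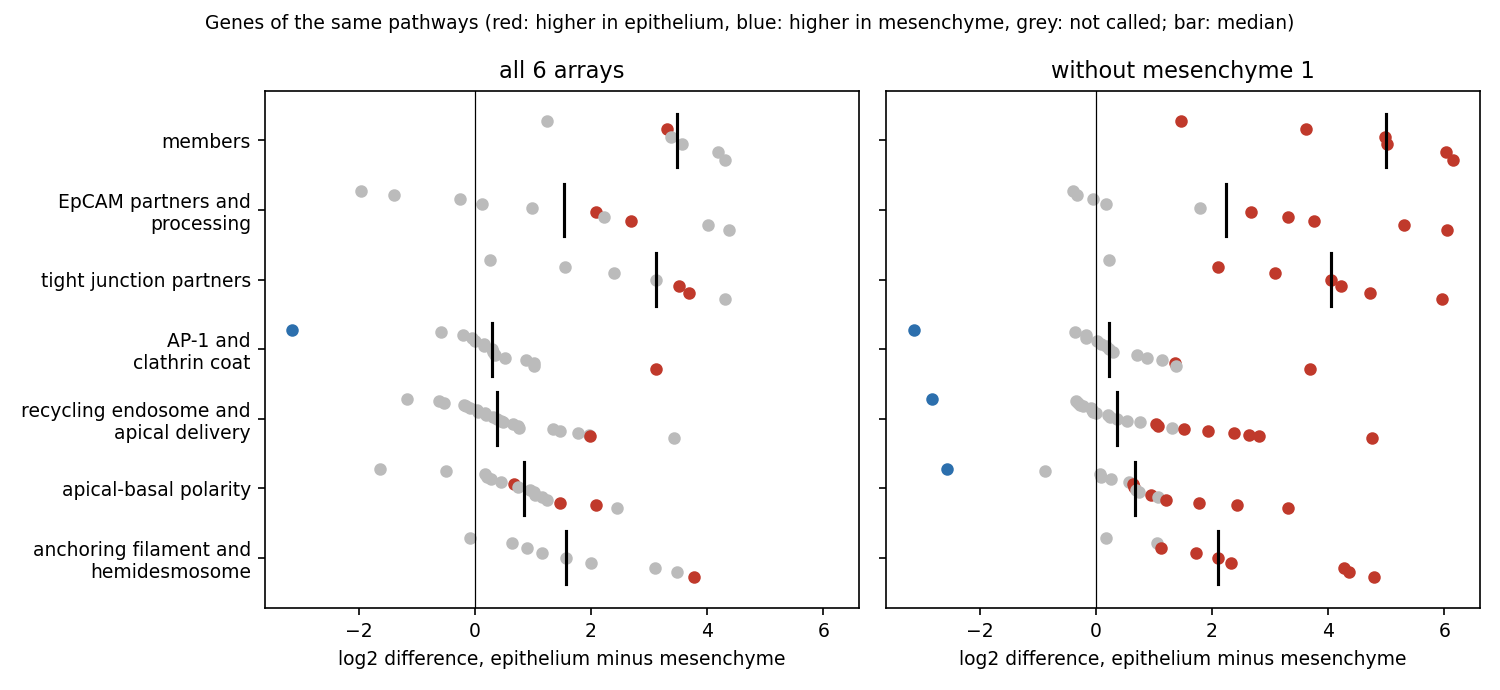
Log2 difference, epithelium minus mesenchyme, of each tested gene in the lists around the members, with all 6 arrays on the left and without mesenchyme 1 on the right; red is called higher in epithelium, blue called higher in mesenchyme, grey not called, and the bar is the list's median. The tight junction list has the highest median of the 6 lists around the members, at 3.11 and 4.05, and the AP-1 and clathrin list the lowest, at 0.30 and 0.22.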

How the data were processed

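RNA from 3 epithelial and 3 mesenchymal samples was measured on 1 array each. The deposited table holds 1 linear intensity (signal) per probe set and array. Per the submitters' processing notes the tool was GCOS, the Affymetrix software. The version and the settings of GCOS are not given in the sources. With 2% of probe sets trimmed at either end, the deposited intensity averaged 1500 on each array, a scaling shared by all 6. Array medians were 126 to 254, and the table used here holds no detection calls, so dim values have no bound and their precision is limited by the number of arrays.

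Of 45101 probe sets 64 controls were left out. By the platform annotation 34945 name 1 gene and 932 several, and 34741 of the former matched the RefSeq table of assembly GRCm38.p6 by gene identifier, which changed 0 symbols. Coordinates are given for RefSeq promoters only, since no build is named for the array. The deposited intensity was taken as log2(signal + 16) and quantile normalized. Probe sets above the 40th percentile of mean log2 value were kept and the brightest represented each gene, and without mesenchyme 1 these steps were redone on 5 arrays. The test between layers was that of limma 3.58.1 under R 4.3.3 (lmFit, eBayes with trend, no covariate), with Benjamini-Hochberg adjustment at a threshold of 0.05. Contrasts of paralogues used two-sided exact permutation tests. The code was tested on simulated data.

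Named genes are the members, their paralogues, up to 4 called genes of each list with the largest difference or else the 2 whose probe sets had the highest mean signal, and the 6 genes nearest to the members' median pattern whose probe set is not of the _x_at kind. Members, lists, tests and motifs were chosen with earlier results of these data known. Of 150 list entries 144 were analysed, and the others are not reported here. Probe sets ending in _a_at, _s_at or _x_at can match several transcripts. This touches Epcam, the first probe set of Myo5b, Ildr2, Ap1m1, Spint2, Cldn1, Ap1s2, Lama3, Anxa2 and Prkci. Alternatives were other offsets, normalizations and filters, averaging of a gene's probe sets, unique probe sets only, eBayes without trend or robust, array weights, the replicate number as a block, each array left out and, chosen after seeing the data, the probe sets brightest over all 6 arrays in the fit without mesenchyme 1.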

Additional observations from a re-analysis of the deposited data

How the results depend on the processing

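With all 6 arrays the count of members called was 6 with array weights, 0 with the replicate number as a block and 0 to 6 with each array left out, being 0 without epithelium 1 or 5 and 6 without mesenchyme 1. Their median difference was 5.24 with array weights and 2.41 to 4.99 with each array left out. Without mesenchyme 1, 5 or 6 members were called under each alternative run, Myo5b being lost with no filter (adjusted p 0.0576). The median was then 4.41 with offset 64, 4.38 with the mean of probe sets and 4.08 to 5.70 with a further array left out. Where that left 1 mesenchymal array, it was assumed to vary like the others. Genes called, 820 with all arrays, ranged from 0 with the replicate block and 142 without epithelium 1 to 1975 without mesenchyme 1 and 5109 with array weights, whose estimation stopped early; without mesenchyme 1 they ranged from 649 to 5901. The sign turned for Dst with all 6 arrays, to 0.11 with median centring, 2.01 with the mean of probe sets, 0.25 with array weights, 0.18 without mesenchyme 1 and 2.46 without mesenchyme 3 (each array left out, -0.17 to 2.46). The brightest probe set was chosen again with each array left out. The 2.46 is not from the Dst probe set of the main fit. That one read 7347, 6439 and 7984 in epithelium and 11079 and 6831 on mesenchyme 1 and 2. The sign turned for Rab11a without mesenchyme 1 when epithelium 2 was left out too (range -0.12 to 0.30), for Lsr against Ildr1 to 0.57 with offset 64, and for Myo5b against Myo5c to 0.41 with the mean of probe sets. The causes of the other turns were not tested. No label ties the samples numbered 1 and 2 in both layers, so the block uses a shared number only. Under it Lsr had a limma adjusted p of 0.169. The deviations of these samples from their layer means had correlations across genes of -0.0453 and -0.0209. The mesenchymal mean includes mesenchyme 1, which stood apart, so these correlations cannot tell whether samples of a shared number belong together. No blocked fit was possible without mesenchyme 1, where the layers share 1 number. Without detection calls, the fold changes of members near 20 signal units in mesenchyme depend on the offset.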
